A study of Mus musculus with 12 samples.

Results

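The genes followed here are 34 genes of glycolysis and of the hypoxia-inducible factor 1 (HIF-1) pathway. They were picked by symbol from the 43280 genes of an RNA-sequencing table of murine macrophages, with Ero1l listed under that older symbol of Ero1a, and all 34 were found and tested among 12086 genes. BMDM, macrophages differentiated in a dish from bone marrow with the growth factor M-CSF, came from wild type (wt) mice or from mice lacking Treml4, a receptor of the TREM-like family, on a C57BL6 background. Unstimulated macrophages (M0) were compared with macrophages activated by lipopolysaccharide (LPS), a bacterial cell wall component, at 100 ng/mL for 8 h (M1-8 h) or 12 h (M1-12 h). The 6 groups were therefore wt M0, wt M1-8 h, wt M1-12 h, Treml4-/- M0, Treml4-/- M1-8 h and Treml4-/- M1-12 h, with 2 biological replicates each and 12 libraries in all. The protocol names PBS as the vehicle, Treml4-/- cells lack the gene from the germ line on, and the age of the mice is not given in the sources used here. The questions addressed are which enzymes and isoforms moved with LPS, at which time, and whether the course differed between the genotypes.

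Glycolysis breaks glucose down to pyruvate, and macrophages activated by LPS are known to rely on it and to export lactate. HIF-1 is a transcription factor whose alpha subunit, HIF-1α, is encoded by Hif1a. Prolyl hydroxylases (the EGLN proteins) mark that subunit for degradation when oxygen is present. HIF-1 binds DNA at a short core with the letters ACGTG or GCGTG and is known to act on many glycolytic genes, and also on genes for mitophagy, vessel growth and oxygen sensing. LPS is known to raise HIF-1α in macrophages in the presence of oxygen, in part through NF-kB, which acts on Hif1a itself.

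RefSeq promoter windows, from 250 bases before to 50 bases after each start (GRCm38.p6), were matched for 33 of the 34 genes and gave 54 windows, 1 of the genes being matched through its other symbol. A HIF core, searched as ACGTG and GCGTG on both strands, was present in 77.8% of the 54 windows, beside 62.1% of the 11125 windows of genes tested here and 43.8% of all 32851 windows. The palindrome CACGTG counts on both strands, and both cores contain the letters CG, so the share also follows how rich in CG a window is. The 250 bases before the start are shown for Bnip3, Ankrd37, Ero1l and Egln3. These are 4 of the known HIF-1 targets with 1 RefSeq window each that were higher after 12 h than after 8 h. All 4 lie on the minus strand and are printed 5′ to 3′ along the gene, with HIF cores of either strand in capitals.
Bnip3, chr7:138909507-138909756: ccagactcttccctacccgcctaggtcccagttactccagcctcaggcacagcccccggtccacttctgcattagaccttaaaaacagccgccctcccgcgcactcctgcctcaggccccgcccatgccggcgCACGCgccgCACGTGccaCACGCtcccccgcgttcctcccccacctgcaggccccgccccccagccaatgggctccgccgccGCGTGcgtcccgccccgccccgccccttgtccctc
Ankrd37, chr8:45999851-46000100: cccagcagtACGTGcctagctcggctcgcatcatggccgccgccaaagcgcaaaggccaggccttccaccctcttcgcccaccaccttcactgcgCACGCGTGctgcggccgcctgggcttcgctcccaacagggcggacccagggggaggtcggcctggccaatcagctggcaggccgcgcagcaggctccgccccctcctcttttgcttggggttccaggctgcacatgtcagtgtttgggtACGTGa
Ero1l, chr14:45318573-45318822: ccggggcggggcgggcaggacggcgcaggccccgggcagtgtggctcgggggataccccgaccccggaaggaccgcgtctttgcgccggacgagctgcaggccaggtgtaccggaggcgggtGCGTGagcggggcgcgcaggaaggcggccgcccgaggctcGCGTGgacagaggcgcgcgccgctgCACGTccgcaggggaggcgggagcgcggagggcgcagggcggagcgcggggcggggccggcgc
Egln3, chr12:54203875-54204124: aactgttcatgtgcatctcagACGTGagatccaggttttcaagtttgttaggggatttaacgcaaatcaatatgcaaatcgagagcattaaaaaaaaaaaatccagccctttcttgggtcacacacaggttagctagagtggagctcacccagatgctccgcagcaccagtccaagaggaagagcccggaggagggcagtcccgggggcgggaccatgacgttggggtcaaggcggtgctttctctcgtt
Counted on both strands, the window of Bnip3 held 5 cores, that of Ankrd37 4, that of Ero1l 3 and that of Egln3 1. These are matches of letters only, and no binding was measured.

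Levels are given as CPM, a gene's read count scaled to the total of its library, and the libraries held 48008751 to 58500792 reads counted on genes, so that 1 read was worth 0.0171 to 0.0208 CPM. Treml4 had 198 to 663 reads in the 6 wt libraries and 0 in the 6 Treml4-/- libraries. The macrophage markers summed to 18875 to 25804 CPM at M0 and to 8398 to 11633 CPM after LPS. Neutrophil markers summed to 49.2 to 161.5 CPM, and the sums for B cells, T cells, dendritic cells, stroma and erythroid cells were at most 9.23 CPM in any library. Sums of some of these lists moved with LPS, from at most 1.04 to between 4.37 and 9.23 CPM for dendritic cells, from between 4.41 and 6.48 to between 0.204 and 0.686 CPM for B cells and from between 3.82 and 5.26 to between 0.774 and 1.44 CPM for T cells. Cd79a of the B cell list and Cd3d, Cd3e and Cd3g of the T cell list were under 0.1 CPM in every library, and the part of other cells in the results below was not tested. In such bulk samples fewer cells of a type and less RNA per cell cannot be told apart.

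LPS shifted the whole table. The median log2 fold change of all genes tested was -0.74 in wt and -0.70 in Treml4-/- cells after 8 h, and -0.77 and -0.74 after 12 h, so at CPM most genes fell while a smaller number rose strongly. A gene is called here when its limma p, adjusted by Benjamini-Hochberg (BH) over all genes, is under 0.05 and its fold change is at least 1.4 on the log2(CPM + 1) scale, which understates changes of weakly expressed genes. Of the genes called, 21.2% were higher in wt and 23.4% in Treml4-/- cells after 8 h, and 21.2% and 21.3% after 12 h. With median of ratios scaling, which moves the median of all genes to about 0, these shares were 50.6%, 50.8%, 51.0% and 51.1%. The 34 genes had, in contrast, positive median log2 fold changes, of 0.92 and 0.69 after 8 h and of 1.96 and 1.71 after 12 h. Relative to the median gene, 30 of the 34 were up after 8 h and 32 after 12 h in each genotype.

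At M1-8 h, 22 of the 34 genes were called higher and 4 lower in wt macrophages, and 22 higher and 7 lower in Treml4-/- macrophages. Over all genes tested, 16.3% were called higher and 60.6% lower in wt, and 17.7% and 58.1% in Treml4-/- cells. At M1-12 h, 28 genes were higher and 3 lower in wt and 27 higher and 2 lower in Treml4-/- cells, beside 16.2% higher and 60.4% lower of all genes in wt and 16.1% and 59.6% in Treml4-/- cells. The same 21 genes rose after 8 h in both genotypes, and 27 did so after 12 h. Pfkm and Aldoc fell at both times in both genotypes, although Aldoc after 8 h in wt was at -0.30 and not called with median of ratios scaling. Pkm was called against M0 in none of the 4 comparisons at library size scaling, but its calls depended on the scaling. It was called higher in all 4 with median of ratios scaling, at 0.78 and 1.35 in wt after 8 h and 12 h, against 0.52 and 1.129 in Treml4-/- cells, and with quantile normalization it was called lower after 8 h in Treml4-/- cells, at -0.63. With median of ratios scaling the counts were 30 higher and 3 lower in wt and 27 higher and 4 lower in Treml4-/- cells after 8 h, and 31 higher and 2 lower in each genotype after 12 h. Of all genes tested, 31.1% to 33.5% were higher and 30.4% to 32.1% lower with that scaling over the 4 comparisons. With quantile normalization they were 24 higher and 5 lower in wt and 18 higher and 8 lower in Treml4-/- cells after 8 h, and 27 higher and 2 lower in each after 12 h. The shares of all genes were then 26.9% to 29.7% higher and 35.3% to 36.6% lower.

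**Figure D1:**
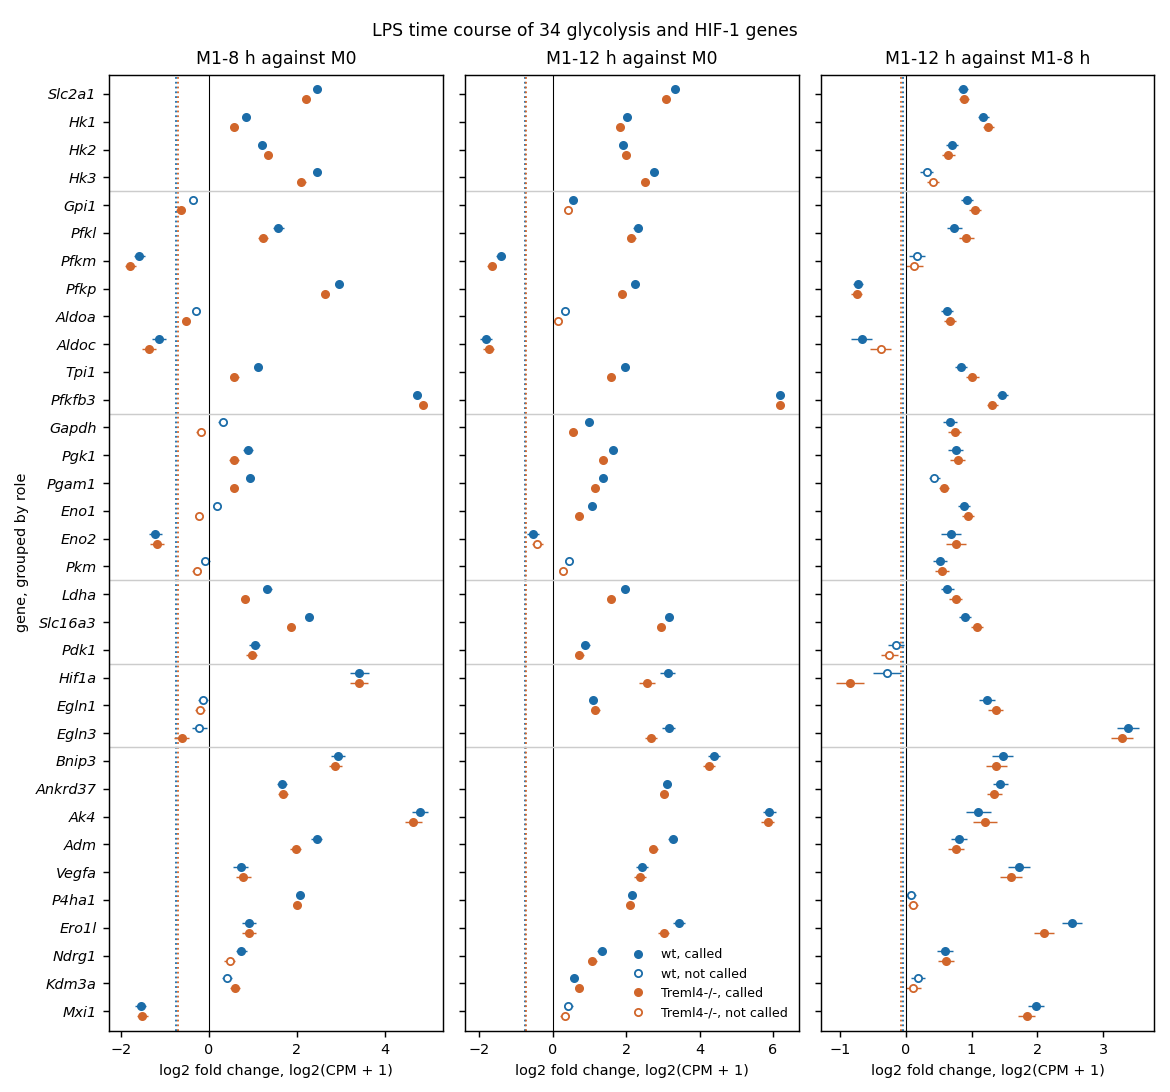
Log2 fold change on the log2(CPM + 1) scale (x axis, with standard error bars) of each of the 34 genes (y axis, grouped by role with grey lines between roles) for M1-8 h against M0, M1-12 h against M0 and M1-12 h against M1-8 h, in wt (blue) and Treml4-/- (orange) macrophages. Filled points were called and open points were not, dotted lines mark the median of all genes tested, and Pfkfb3 and Ak4 lie farthest to the right in the first and second panels.

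Glucose uptake and hexokinases. For this role and those below, the shares of all genes called against M0 were 16.1% to 17.7% higher and 58.1% to 60.6% lower. All 4 genes of this role rose at both times in both genotypes, led by Slc2a1, which encodes the glucose transporter GLUT1 (chr4:119108711-119137983 in GRCm38). Slc2a1 had 105 and 120.03 CPM in the wt M0 libraries, 631 and 618 after 8 h and 1166 and 1116 after 12 h. In Treml4-/- macrophages it had 113 and 113 CPM at M0, 523 and 520.1 after 8 h and 962 and 965 after 12 h. Its level climbed at each time in both genotypes with no overlap between times. The log2 fold change against M0 was 2.46 after 8 h in wt (SE 0.08, BH-adjusted p = 2.4e-10, limma) and 3.33 after 12 h (BH-adjusted p = 2.6e-11), and 2.20 and 3.08 in Treml4-/- cells. Hk3 (chr13:55005985-55021385), a hexokinase known from myeloid cells, had 378 and 439.8 CPM at M0, 2183 and 2285 after 8 h and 2769 and 2796 after 12 h in wt. In Treml4-/- cells its values were 442 and 430.1, 1872 and 1876 and 2371 and 2649.8 CPM. Most of its change was there after 8 h, with log2 fold changes of 2.45 in wt and 2.10 in Treml4-/- cells, and the later step of 0.32 and 0.42 (BH-adjusted p = 0.0169 and 0.00378, limma) fell short of the 1.4-fold minimum. Hk1 and Hk2, which can sit on mitochondria, went on rising, by 1.18 and 0.70 on the log2 scale from M1-8 h to M1-12 h in wt. The Hk1 call after 8 h in Treml4-/- cells was lost with quantile normalization (0.48).

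Relative to M0, the balance among the hexokinases moved toward Hk3. Levels of different genes were set side by side per kilobase of exon (the union of a gene's exons in GENCODE M21), as each gene's percentage of its isoform group. Hk1 had 186 and 197 CPM at wt M0, 339 and 347 after 8 h and 814 and 740.1 after 12 h, and 202 and 191, 307 and 279 and 679 and 717 CPM in Treml4-/- cells. Hk2 had 58.1 and 60.2, 126 and 151 and 213 and 238 CPM in wt and 49.6 and 51.6, 132 and 128 and 207 and 202 CPM in Treml4-/- cells. Both genes thus rose in reads and still lost ground to Hk3 relative to M0. From M1-8 h to M1-12 h Hk1 regained part of its share, from 6.07% and 5.92% to 10.8% and 9.79% in wt. In Treml4-/- cells the Hk1 share went from 6.35% and 5.79% to 10.5% and 10.0%. Hk3 made up 76.5% and 78.2% of the group at wt M0, 90.7% and 90.4% after 8 h and 85.2% and 85.7% after 12 h. Hk2, the isoform most often linked to HIF-1, was 6.29% ± 0.794 (SD, n = 4 libraries of both genotypes) at M0, 3.65% ± 0.297 after 8 h and 4.28% ± 0.284 after 12 h. At both times the Hk2 share was lower than at M0 with no overlap (exact permutation test, two-sided, p = 0.0286, which is the smallest that 4 against 4 libraries allow, adjusted p = 0.0317 over 10 share tests).

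Upper glycolysis. The 8 genes of this role split, with Pfkfb3, Pfkp, Pfkl and Tpi1 higher at both times in both genotypes and Pfkm and Aldoc lower. Pfkfb3 (chr2:11471433-11554077), whose product makes the activator of phosphofructokinase, had the largest mean log2 fold change of the 34 genes over the 4 comparisons with M0 on the log2(CPM + 1) scale, while Ak4, described below, had larger ratios of mean CPM in all 4. It had 28.6 and 29.0 CPM at M0, 822 and 763 after 8 h and 2357 and 2037 after 12 h in wt macrophages. In Treml4-/- macrophages the values were 29.0 and 28.1, 853 and 868 and 2134 and 2155 CPM. All LPS libraries were far above all M0 libraries, and the genotypes lay side by side. The mean rose 27.5-fold by M1-8 h and 76.3-fold by M1-12 h in wt, with log2 fold changes of 4.73 (SE 0.08, BH-adjusted p = 2.7e-12, limma) and 6.20 (SE 0.08, BH-adjusted p = 5.3e-13). The log2 fold changes in Treml4-/- cells were 4.86 and 6.18. Tpi1, triose phosphate isomerase, rose in wt from 464 ± 1.12 CPM (SD, n = 2) at M0 to 1008 ± 96.1 after 8 h and 1804 ± 5.16 after 12 h. In Treml4-/- cells it had 522 ± 36.1, 779 ± 72.4 and 1571 ± 32.2 CPM. Its call after 8 h in Treml4-/- cells was lost with quantile normalization (0.39) and without Treml4-/- M1-8 h replicate 1 (0.48).

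The phosphofructokinase genes, which encode the committing step of glycolysis, moved in different directions and at different times. Pfkp, the platelet type, had 144 and 139 CPM at wt M0, 1069.7 and 1144 after 8 h and 639 and 699 after 12 h, and 154 and 153, 994 and 937 and 549 and 601 CPM in Treml4-/- cells. Pfkl, the liver type, had 78.1 and 86.3, 217 and 282 and 403 and 420.3 CPM in wt and 78.5 and 74.2, 185 and 175 and 329 and 354 CPM in Treml4-/- cells. Pfkm, the muscle type, had 27.5 and 24.1, 7.49 and 8.26 and 8.48 and 9.53 CPM in wt and 30.0 and 25.8, 7.76 and 6.86 and 8.54 and 7.64 CPM in Treml4-/- cells. Pfkp peaked after 8 h, Pfkl was highest after 12 h, and Pfkm was down at both times. From M1-8 h to M1-12 h Pfkp fell by 0.73 on the log2 scale in wt (BH-adjusted p = 5.0e-05, limma) and by 0.75 in Treml4-/- cells, and it was the only one of the 34 genes called lower at that step in both genotypes. Pfkm fell by 1.59 on the log2 scale in wt (BH-adjusted p = 3.2e-07, limma) and by 1.80 in Treml4-/- cells after 8 h, and both other scalings (median of ratios and quantile normalization) also called it lower at both times. As a share per kilobase, Pfkp went from 35.6% ± 1.54 (SD, n = 4 libraries of both genotypes) at M0 to 69.4% ± 2.62 after 8 h and 44.1% ± 0.699 after 12 h. Pfkp was above its M0 share at both times in the exact permutation test (two-sided, p = 0.0286, adjusted p = 0.0317 over 10 share tests). Pfkm held 26.8% and 23.6% of the group at wt M0 and 2.29% and 2.42% after 12 h, while Pfkl went from 38.1% and 42.4% to 54.6% and 53.4%.

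Aldolase reads came almost wholly from Aldoa, and the share of Aldoc shrank further. Aldoa had 2145 and 2415 CPM at wt M0, 1889.6 and 1805 after 8 h and 2879 and 2806 after 12 h, and 2485 and 2319.9, 1712 and 1644 and 2568 and 2762 CPM in Treml4-/- cells. Aldoc had 90.3 and 116, 39.6 and 52.7 and 26.5 and 30.4 CPM in wt and 101 and 93.9, 40.6 and 34.1 and 29.8 and 27.0 CPM in Treml4-/- cells. All M1-8 h libraries of Aldoa were below those of M0 and all M1-12 h libraries above them, whereas the Aldoc libraries were below those of M0 at both times. The Aldoa share was 96.3% ± 0.297 (SD, n = 4) at M0, 97.9% ± 0.336 after 8 h and 99.1% ± 0.0946 after 12 h, with no overlap with M0 at either time (exact permutation test, two-sided, p = 0.0286, adjusted p = 0.0317 over 10 share tests). The lower Aldoa level after 8 h was called in Treml4-/- cells, at -0.52 on the log2 scale (-0.47 and not called without Treml4-/- M0 replicate 1), and not in wt, at -0.30, and with median of ratios scaling both values turned positive, to 0.28 and 0.56, whereas with quantile normalization Aldoa was called lower in wt too, at -0.84. Gpi1, which carries glucose phosphate to fructose phosphate, followed a like course, with 804 ± 84.6 CPM (SD, n = 2) at wt M0, 621 ± 22.8 after 8 h and 1188 ± 60.3 after 12 h, and its M1-8 h values of -0.37 and -0.65 also turned positive with median of ratios scaling, whereas quantile normalization called it lower in wt, at -0.67.

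Lower glycolysis. At M1-8 h only Pgk1 and Pgam1 of the 6 genes were higher in both genotypes, and after 12 h Gapdh, Pgk1, Pgam1 and Eno1 were. In Treml4-/- cells quantile normalization ended the calls of Pgk1 (0.31) and Pgam1 (0.43) after 8 h and of Eno1 (0.31) after 12 h, and that of Pgam1 after 8 h was also lost without Treml4-/- M1-8 h replicate 1 (0.48). Gapdh, the dehydrogenase often used as a reference gene, had 2013 and 1785 CPM at wt M0, 2433 and 2267 after 8 h and 3809 and 3677 after 12 h, and 2418 and 2108, 2050.5 and 1906 and 3225 and 3389 CPM in Treml4-/- cells. In Treml4-/- cells its M1-8 h libraries lay below the M0 libraries and its M1-12 h libraries above them. The log2 fold change after 12 h was 0.98 in wt (SE 0.10, BH-adjusted p = 2.8e-06, limma) and 0.55 in Treml4-/- cells, and with quantile normalization it was 0.36 and not called in wt and -0.06 in Treml4-/- cells. At M1-8 h the direction of Gapdh depended on the scaling, with -0.19 in Treml4-/- cells at library size and 0.60 with median of ratios scaling. Pgk1, which yields the first ATP of the pathway, rose from 521 ± 84.8 CPM (SD, n = 2) at wt M0 to 953 ± 78.1 and 1611 ± 97.5. Pgam1, phosphoglycerate mutase, rose from 254 ± 0.764 CPM to 485 ± 14.9 and 655 ± 32.1. Gapdh, Pgk1, Pgam1, Eno1, Ldha, Tpi1, Aldoa and Pkm have processed copies elsewhere in the genome, and how the authors' counting shared such reads was not tested.

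The enolase genes differed in level and in course. Eno1, the enolase found in most cells, had 1089 and 1076 CPM at wt M0, 1211 and 1227 after 8 h and 2252 and 2254 after 12 h, and 1275 and 1137, 1096 and 970.1 and 1941 and 2035 CPM in Treml4-/- cells. Eno2, the neuronal enolase, had 5.19 and 4.66, 1.39 and 1.69 and 2.78 and 3.39 CPM in wt and 4.87 and 5.22, 1.32 and 2.05 and 3.25 and 3.82 CPM in Treml4-/- cells. All M1-12 h libraries of Eno1 were above the M0 and M1-8 h libraries, and all M1-8 h libraries of Eno2 were below those of M0. Eno1 rose by 0.89 and 0.95 on the log2 scale from M1-8 h to M1-12 h (BH-adjusted p = 2.2e-05 and 1.5e-05, limma). Against M0 after 8 h Eno1 was not called at library size scaling, was called higher at 1.03 in wt and 0.57 in Treml4-/- cells with median of ratios scaling, and was called lower at -0.57 in Treml4-/- cells with quantile normalization. Eno2 fell by 1.22 in wt and by 1.18 in Treml4-/- cells after 8 h, and with quantile normalization these values were -0.35 and -0.39 and not called. At M1-12 h Eno2 was at -0.54 in wt, which was called, and -0.42 in Treml4-/- cells, which was not, and both values turned positive under each of the other scalings. The Eno1 share was 99.5% ± 0.0467 (SD, n = 4) at M0 and 99.8% at both times, with SDs of 0.0507 and 0.0309 (exact permutation test, two-sided, p = 0.0286, adjusted p = 0.0317 over 10 share tests). Pkm, pyruvate kinase, had 4723 and 4824 CPM at wt M0, 4886 and 4159.9 after 8 h, where the libraries overlapped those of M0, and 6859.7 and 6149 after 12 h, and the gene-level reads do not separate its splice forms. It was called higher from M1-8 h to M1-12 h, by 0.53 in wt and 0.55 in Treml4-/- cells, although the call in wt was lost without wt M1-12 h replicate 1 (0.45) or without wt M1-8 h replicate 2 (0.41).

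**Figure D2:**
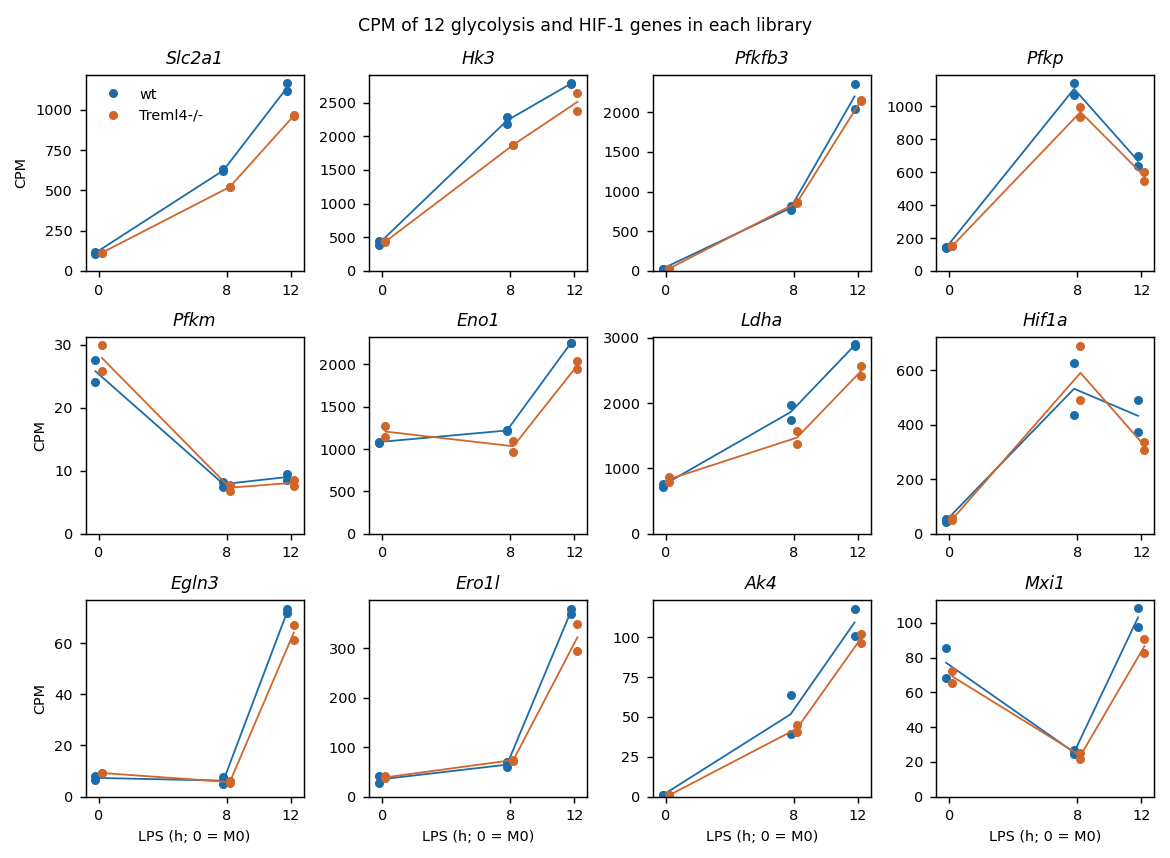
CPM (y axis, linear, from 0) of 12 of the genes in each library against hours of LPS (x axis, 0 for M0), with wt in blue and Treml4-/- in orange, points for libraries and lines through the 2-library means. The means of Pfkp and Hif1a were highest at 8 h, although the wt Hif1a libraries of 8 h and 12 h overlapped. Eno1, Egln3 and Ero1l rose mainly between 8 h and 12 h, Mxi1 dipped at 8 h, and Pfkm stayed low after LPS.

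Fate of pyruvate and lactate. All 3 genes of this role rose at both times in both genotypes. Slc16a3 (chr11:120948480-120960868), which encodes the lactate exporter MCT4, had 95.5 and 109 CPM at wt M0, 469 and 528 after 8 h and 935 and 925 after 12 h. The Treml4-/- libraries had 104 and 100.02, 395 and 351 and 768 and 813 CPM. The exporter rose at each step without overlap, with log2 fold changes after 12 h of 3.18 in wt (SE 0.10, BH-adjusted p = 1.5e-10, limma) and 2.94 in Treml4-/- cells. Ldha, the lactate dehydrogenase subunit that favours lactate, had 719 and 759.95 CPM at wt M0, 1745 and 1976 after 8 h and 2869 and 2897 after 12 h, and 871 and 797, 1574 and 1369 and 2416 and 2560.4 CPM in Treml4-/- cells. It rose by 1.33 and 0.82 on the log2 scale after 8 h and by 1.96 and 1.58 after 12 h. Pdk1, a kinase that shuts off pyruvate dehydrogenase, rose by 1.04 and 0.97 after 8 h and had values of -0.15 and -0.25 from M1-8 h to M1-12 h, which were not called.

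HIF-1 and its prolyl hydroxylases. Hif1a was called higher at both times, and the prolyl hydroxylase genes Egln1 and Egln3 after 12 h, with calls after 8 h that depended on the scaling. Hif1a (chr12:73901375-73947530) had 55.9 and 41.5 CPM at wt M0, 437 and 628 after 8 h and 375 and 492 after 12 h. The Treml4-/- libraries had 50.2 and 57.9 CPM at M0, 493 and 689 after 8 h and 338 and 309 after 12 h. Replicates were farther apart than for most genes, and the wt libraries of M1-8 h and M1-12 h overlapped. The log2 fold change against M0 was 3.42 in wt (SE 0.21, BH-adjusted p = 4.4e-08, limma) and 3.41 in Treml4-/- cells after 8 h, and 3.13 and 2.56 after 12 h. From M1-8 h to M1-12 h Hif1a fell by 0.85 in Treml4-/- cells (BH-adjusted p = 0.00732, limma) and had a value of -0.29 in wt that was not called. The call in Treml4-/- cells was lost without Treml4-/- M1-12 h replicate 2 (-0.78, limma BH-adjusted p = 0.0543) and without Treml4-/- M1-8 h replicate 2 (-0.61, limma BH-adjusted p = 0.0678). Over the 12 libraries the genes outside the set whose log2(CPM + 1) profile was most like that of Hif1a were Gng12, Jak2 and Ifih1, with Pearson's r of 0.997, 0.996 and 0.996, in libraries that share the LPS groups.

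Egln1 and Egln3, which encode the oxygen-dependent hydroxylases PHD2 and PHD3 and are themselves known HIF-1 targets, rose between M1-8 h and M1-12 h. Egln3 (chr12:54178981-54203860) had 8.02 and 6.59 CPM at wt M0, 4.76 and 7.69 after 8 h and 71.8 and 73.5 after 12 h, and 9.19 and 9.28, 6.05 and 5.29 and 67.3 and 61.3 CPM in Treml4-/- cells. Egln1 had 51.9 and 47.1, 39.4 and 50.8 and 101 and 113 CPM in wt and 42.7 and 43.5, 38.9 and 35.4 and 98.6 and 96.2 CPM in Treml4-/- cells. At M1-8 h Egln3 was near or below its M0 level, and by M1-12 h every library was several fold above it. Egln3 rose by 3.38 in wt (SE 0.17, BH-adjusted p = 3.9e-07, limma) and 3.29 in Treml4-/- cells on the log2 scale from M1-8 h to M1-12 h, the largest such steps among the 34 genes, and Egln1 rose by 1.24 and 1.37. At M1-8 h Egln3 was called lower in Treml4-/- cells (-0.62) and not in wt (-0.23), and with median of ratios scaling or quantile normalization the values for both genes after 8 h were positive in both genotypes. With median of ratios scaling Egln1 was called higher after 8 h, at 0.70 in wt and 0.57 in Treml4-/- cells, and Egln3 in wt, at 0.51, and quantile normalization called Egln3 higher in wt, at 0.75. Egln3 made up 19.5% ± 3.42 (SD, n = 4 libraries of both genotypes) of this pair per kilobase at M0, 16.3% ± 1.52 after 8 h and 47.5% ± 1.20 after 12 h. The share after 12 h was above that at M0 without overlap (exact permutation test, two-sided, p = 0.0286, adjusted p = 0.0317 over 10 share tests), and after 8 h it overlapped M0 with the genotypes pooled (exact permutation test, p = 0.229). The Egln3 share was 17.3% and 15.9% at wt M0 and 14.0% and 17.0% after 8 h, which overlapped. In Treml4-/- cells it was 22.5% and 22.3% at M0 and lower after 8 h, at 17.3% and 16.8%.

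**Figure D3:**
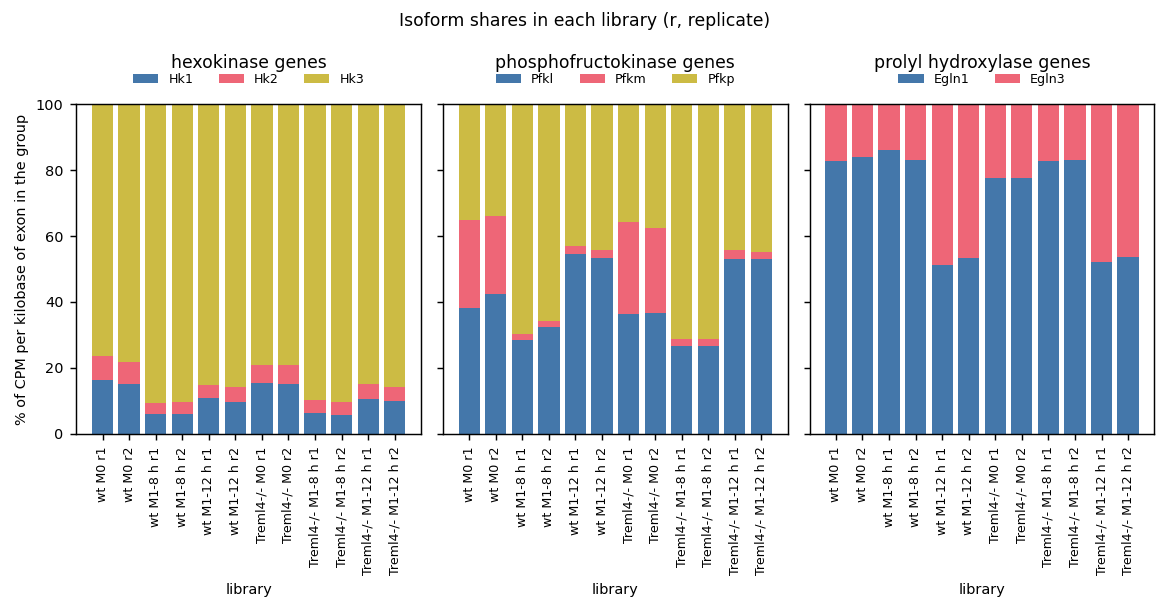
Share of each gene (y axis, % of the CPM per kilobase of exon in its isoform group) in each of the 12 libraries (x axis) for the hexokinase, phosphofructokinase and prolyl hydroxylase genes. Hk3 held 76.5% or more in every library, Pfkp was largest after 8 h while Pfkm shrank from a range of 23.6% to 27.9% at M0 to at most 2.76% after LPS, and Egln3 grew after 12 h.

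HIF-1 targets outside glycolysis. Of the 10 genes of this role, 8 were called higher in each genotype after 8 h and 9 after 12 h, beside 16.1% to 17.7% of all genes. Bnip3 (chr7:138890836-138909519), a mitophagy receptor whose promoter is shown above, had 26.9 and 19.1 CPM at wt M0, 155 and 207 after 8 h and 509 and 488 after 12 h. The Treml4-/- libraries had 23.0 and 25.05, 178 and 187 and 499 and 452 CPM. Bnip3 rose at each step without overlap, with log2 fold changes of 2.92 and 4.40 against M0 in wt (SE 0.16, BH-adjusted p = 1.3e-08 and 5.6e-10, limma) and 2.87 and 4.25 in Treml4-/- cells. Ak4 (chr4:101419277-101466995), a mitochondrial adenylate kinase, had 0.733 and 0.964 CPM at wt M0, 39.3 and 64.0 after 8 h and 101 and 118 after 12 h. In Treml4-/- cells it had 0.733 and 0.748, 45.1 and 40.3 and 102 and 96.4 CPM. Ak4 was under 1 CPM in every M0 library, and its mean CPM rose 60.9-fold by M1-8 h and 129-fold by M1-12 h in wt and 57.6-fold and 134-fold in Treml4-/- cells. On the log2(CPM + 1) scale these changes were 4.79, 5.90, 4.65 and 5.85, with adjusted p of at most 1.3e-09 (limma, BH).

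Adm (chr7:110627661-110629820), the gene of the vasodilator peptide adrenomedullin, was near silent before LPS. It had 0 reads in both wt M0 libraries and 1 read in all in the Treml4-/- M0 libraries. After LPS it had 4.38 and 4.59 CPM after 8 h and 9.19 and 8.08 after 12 h in wt, and 2.55 and 3.42 and 5.50 and 5.95 in Treml4-/- cells. Every LPS library was above every M0 library and every M1-12 h library above the M1-8 h libraries of its genotype. Against a floor of 3 reads per library Adm was at least 76.7-fold higher after 8 h and at least 148-fold higher after 12 h in wt. In Treml4-/- cells the ratio to that 1 read was 304.5 (exact 95% binomial interval 54.3 to 12063) after 8 h and 589 (105 to 23317) after 12 h, intervals that cover counting error only.

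Ero1l, Vegfa and Mxi1 changed mostly or again after M1-8 h. Ero1l (chr14:45283087-45318771), an oxidoreductase that forms disulfide bonds in the endoplasmic reticulum, had 40.8 and 27.9 CPM at wt M0, 58.9 and 70.1 after 8 h and 379.9 and 370.3 after 12 h, and 37.0 and 40.7, 72.9 and 74.9 and 349 and 295 CPM in Treml4-/- cells. Vegfa, the vascular growth factor, had 13.2 and 12.5, 19.5 and 24.3 and 60.5 and 90.1 CPM in wt and 8.45 and 9.48, 15.7 and 16.4 and 51.8 and 49.3 CPM in Treml4-/- cells. Both genes made the larger part of their rise in the last 4 h, by 2.53 and 1.72 on the log2 scale in wt, against 2.10 and 1.60 in Treml4-/- cells. Mxi1, an antagonist of Myc, had 85.6 and 68.5 CPM at wt M0, 26.6 and 24.2 after 8 h and 109 and 97.6 after 12 h, and 65.6 and 72.6, 25.3 and 21.7 and 90.7 and 82.5 CPM in Treml4-/- cells. It fell by 1.56 in wt (BH-adjusted p = 3.6e-07, limma) and by 1.52 in Treml4-/- cells after 8 h, also with the other scalings, and then rose by 1.98 and 1.84 to a level whose difference from M0, 0.42 in wt and 0.32 in Treml4-/- cells, was not called. With the other scalings Mxi1 was called higher than M0 after 12 h, at 1.32 in wt and 1.17 in Treml4-/- cells with median of ratios scaling and at 0.77 and 0.72 with quantile normalization, and the wt value was also called without wt M0 replicate 1 (0.58) or without wt M1-12 h replicate 2 (0.50). Ankrd37, an ankyrin repeat gene, rose from 2.36 ± 0.105 CPM (SD, n = 2) at wt M0 to 9.64 ± 1.07 and 27.8 ± 0.976. P4ha1, a collagen prolyl hydroxylase subunit, rose from 56.9 ± 0.216 CPM to 241 ± 0.149 after 8 h and stood at 256 ± 19.3 after 12 h. Ndrg1, a stress-induced gene, and Kdm3a, a histone demethylase, had smaller changes, with log2 fold changes after 12 h of 1.33 and 0.59 in wt, against 1.08 and 0.71 in Treml4-/- cells.

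Timing between M1-8 h and M1-12 h. Over the last 4 h, 25 of the 34 genes rose and 2 fell in wt, and 26 rose and 2 fell in Treml4-/- macrophages. Of all genes tested, 14.0% were called higher and 17.6% lower in wt, against 12.9% and 19.4% in Treml4-/- cells, and the median of all genes moved by -0.04 and -0.08. The same 25 genes rose in both genotypes, with the largest steps in Egln3, Ero1l, Mxi1 and Vegfa. Hk3, Pfkm, Pdk1, P4ha1 and Kdm3a were called in neither genotype at this step. The 2 genes that fell were Pfkp and Aldoc in wt and Pfkp and Hif1a in Treml4-/- cells. Aldoc fell by 0.67 in wt, a call lost without wt M1-8 h replicate 2 (-0.47, limma BH-adjusted p = 0.0507), and had a value of -0.38 in Treml4-/- cells. These steps share the M1-8 h libraries with the comparisons against M0, so that a low M1-8 h value enters both.

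The other genes of these pathways are given beside all genes tested, of which 58.1% to 60.6% were called lower and 16.1% to 17.7% higher against M0. Of 35 other glycolysis genes 21 were tested, and 5 rose and 15 fell in wt after 8 h (5 and 14 in Treml4-/- cells). After 12 h 4 were higher and 16 lower in each genotype. Median of ratios scaling gave 5 of the 21 higher and 11 to 12 lower, beside 31.1% to 33.5% and 30.4% to 32.1% of all genes. Quantile normalization gave 5 higher and 9 to 11 lower, beside 26.9% to 29.7% and 35.3% to 36.6% of all genes. Slc2a6, a glucose transporter family member, went from 40.6 ± 8.42 CPM (SD, n = 2) at wt M0 to 973 ± 140.3 after 8 h and 737 ± 145 after 12 h. Pgm2, of the phosphoglucomutase family, went from 42.6 ± 0.939 to 348 ± 39.0 and 606 ± 6.47 CPM. Of 9 pentose phosphate genes 8 were lower after 8 h and 7 after 12 h in each genotype, the same with quantile normalization and 5 to 6 with median of ratios scaling, and H6pd, hexose phosphate dehydrogenase of the endoplasmic reticulum, and Tkt, transketolase, fell the most, by 3.57 and 2.07 on the log2 scale after 8 h in wt. The list for the TCA cycle had 24 genes and included cytosolic enzymes such as Idh1. None of the 24 was called higher at either time, and 21 were lower in wt and 20 in Treml4-/- cells after 8 h and 22 in each after 12 h. Median of ratios scaling gave 6 to 10 of the 24 lower and 0 to 3 higher over the 4 comparisons, beside 30.4% to 32.1% and 31.1% to 33.5% of all genes. Quantile normalization gave more of them lower, 15 in wt and 16 in Treml4-/- cells after 8 h and 19 and 20 after 12 h. It gave 0 to 2 higher, and its shares of all genes were 35.3% to 36.6% lower and 26.9% to 29.7% higher. At library size scaling the median log2 fold change of all genes after 12 h was -0.77 in wt and -0.74 in Treml4-/- cells, against -1.15 and -1.20 for the 24 genes. Their median log2 fold change after 8 h, -0.85 in wt and -0.98 in Treml4-/- cells, was not far from that of all genes, while Idh1, the cytosolic isocitrate dehydrogenase, fell by 4.48 in wt and fell by 4.13 in Treml4-/- cells. Idh2, its mitochondrial counterpart, went from 63.0 ± 12.3 CPM at wt M0 to 20.7 ± 13 after 8 h and 2.91 ± 1.42 after 12 h. Of 32 other HIF pathway genes 29 were tested, with 8 higher and 11 lower in wt after 8 h and 15 higher and 10 lower after 12 h (9 and 12, and 13 and 9, in Treml4-/- cells). Median of ratios scaling gave 14 to 18 of the 29 higher and 5 to 6 lower over the 4 comparisons. Hilpda, which coats lipid droplets and blocks their breakdown, rose from 5.61 ± 0.492 CPM at wt M0 to 113 ± 1.498 and 269 ± 19.8. In Treml4-/- cells it rose less, from 5.47 ± 0.729 to 83.9 ± 1.87 and 192 ± 5.67 CPM. The study listed Hilpda among lipid regulation genes affected by Treml4 in M1 macrophages.

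Genotype. None of the 34 genes was called between wt and Treml4-/- macrophages at M0, M1-8 h or M1-12 h, where 0.0993%, 0.0910% and 0.132% of all genes tested were called. The study used DESeq2 at the same thresholds and reported many more genes differing between the genotypes in M1 macrophages. It named pathways of carbohydrate metabolism among those tied to them after 8 h. At an unadjusted p under 0.05, limma gave 4 of the 34 at M0, 15 after 8 h and 7 after 12 h, beside 405, 2539 and 912 of the 12086 genes. Of the 34 log2 differences, wt minus Treml4-/-, 11 were above 0 at M0, 27 after 8 h and 30 after 12 h, beside 39.6%, 38.1% and 35.5% of all genes, and the genes share libraries and are not independent. The lowest adjusted p after 8 h was that of Slc16a3, with a log2 difference of 0.42 (SE 0.10, BH-adjusted p = 0.125, limma). Slc16a3 was called there, at 0.50, when Treml4-/- M1-8 h replicate 1 was left out, with 4.95% of all genes called in that fit. Vegfa was called after 12 h, at 0.82, when wt M1-12 h replicate 1 was left out, with 0.655% of all genes called, and its difference with all libraries was 0.54 (BH-adjusted p = 0.397, limma).

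The LPS responses themselves were compared as differences between genotypes. None of the 34 genes had a called difference after 8 h or after 12 h, where 0.00827% of all genes did at each time, which is 1 gene. At an unadjusted p under 0.05, limma gave 10 of the 34 after 8 h and 7 after 12 h, beside 806 and 462 of all genes. The differences after 8 h, wt minus Treml4-/-, were largest for glycolytic enzymes, with 0.54 for Tpi1 (95% interval 0.24 to 0.84), 0.51 for Ldha (0.20 to 0.82) and 0.50 for Gapdh (0.18 to 0.82). Their adjusted p was 0.729 each (limma, BH), and these intervals are not adjusted for the number of genes. Eno1, Gapdh, Ldha and Tpi1 had M0 levels that were higher in Treml4-/- than in wt libraries and M1-8 h levels that were lower. For Pfkfb3 the difference in response was -0.13 (-0.39 to 0.13) after 8 h and 0.02 (-0.24 to 0.28) after 12 h. For Hif1a it was 0.01 (-0.66 to 0.67) after 8 h and 0.57 (-0.10 to 1.23) after 12 h, intervals too wide to exclude a difference of 1.4-fold either way after 8 h. Across the 34 genes the median difference was 0.22 after 8 h and 0.18 after 12 h, beside -0.04 and -0.02 over all genes, and 26 and 29 genes were above 0 beside 43.8% and 46.0% of all genes.

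**Figure D4:**
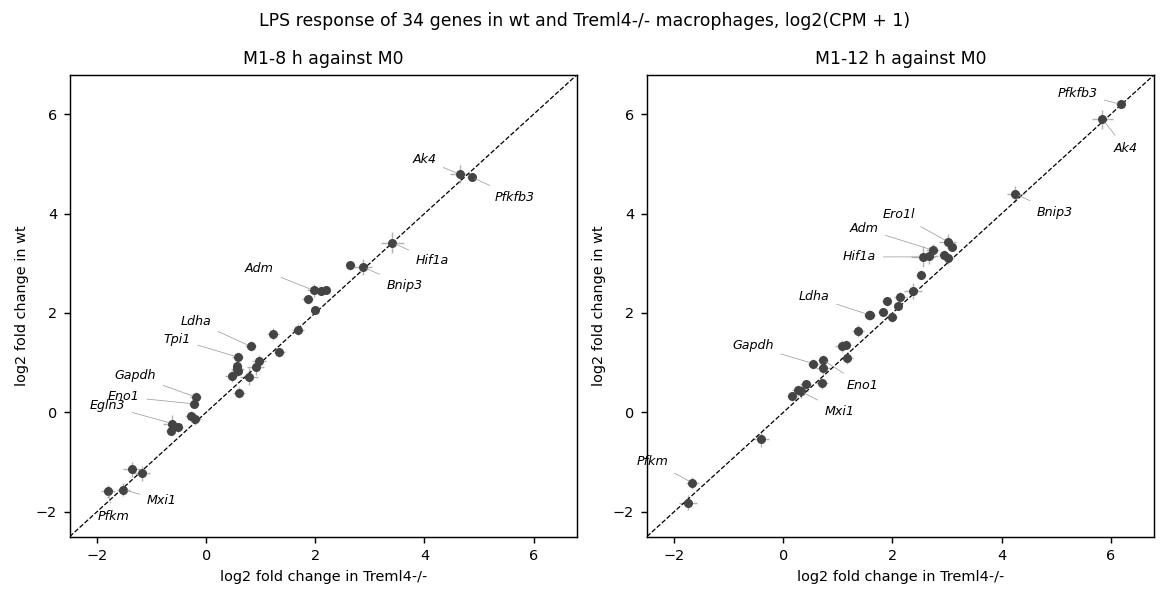
Log2 fold change against M0 in wt (y axis) and in Treml4-/- (x axis) macrophages for the 34 genes after 8 h and after 12 h on the log2(CPM + 1) scale, with standard error bars in both directions and a dashed line at equal response. Most points lie near the line and somewhat above it, with Tpi1, Ldha and Gapdh about 0.5 above it after 8 h, and no difference in response was called.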

How the data were processed

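Poly(A) RNA of BMDM was sequenced (stranded, paired-end) in 12 libraries, 2 biological replicates in each of 6 groups taken from the sample labels. The authors aligned the reads with STAR to mm10, counted them on genes with Subread and deposited log2 CPM, which is read counts scaled to library size with a prior of 0.25 reads. Whether counting used strand is not given in the sources used here. Whole reads were recovered for all values (tolerance 0.05 reads), and CPM were computed from them.

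For the 12086 genes that reached 1 CPM in 2 or more libraries, limma 3.58.1 (lmFit, eBayes with trend; R 4.3.3) was fitted to log2(CPM + 1) with 1 mean per group over 12 libraries. P-values were adjusted by Benjamini-Hochberg over all genes tested, and the 5% and 1.4-fold thresholds were those of the study. Replicates of a group differed by more than counting noise (chi-square per degree of freedom 11.3 to 51.7) and were kept apart, and since separate animals are not stated, p-values measure the spread between these samples. Intervals of a difference are 95% intervals from limma. Isoform shares used exon lengths of GENCODE M21 (GRCm38). Their exact permutation tests took the absolute difference in means over all divisions into 4 against 4 libraries of both genotypes. Libraries were divided without regard to genotype, so these p-values treat the genotypes as replicates of each other. Some shares differed by genotype before LPS. The Hk2 share was 7.25% and 6.61% for the wt M0 libraries, whereas the Treml4-/- M0 libraries had 5.47% and 5.85%. How far this pooling affects the p-values was not tested. The limma fit was run on simulated data first.

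The 34 genes, roles and lists were chosen with earlier results of these data known. Values in every library are given for the 8 genes with the largest mean change called the same way in all 4 comparisons with M0 and for isoform groups, and other genes with values in every library were added for their time course after these were seen. Of each list the 2 genes with the largest mean change are named, except 1 that is not reported here. Alternatives were other scalings, filters, pseudocounts, voom, the deposited log2 values, no trend, fewer libraries, no fold minimum, a replicate block and leaving out each library.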

Additional observations from a re-analysis of the deposited data

How the results depend on the processing

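Of the 170 gene and time combinations called among the 34 genes within a genotype, 147 kept their direction and call under every alternative, 21 lost the call under at least 1 and 5 changed direction under at least 1. Scaling mattered most. With median of ratios scaling the log2 fold changes at M1-8 h changed sign to 0.49 for Gpi1, 0.56 for Aldoa, 0.78 for Pkm, 0.70 for Egln1 and 0.51 for Egln3 in wt, and to 0.15 for Gpi1, 0.28 for Aldoa, 0.60 for Gapdh, 0.57 for Eno1, 0.52 for Pkm, 0.57 for Egln1 and 0.0780 for Egln3 in Treml4-/- cells, and Eno2 at M1-12 h changed to 0.18 in wt and 0.27 in Treml4-/- cells. With quantile normalization they changed at M1-8 h to -0.20 for Gapdh, -0.21 for Eno1, 0.34 for Egln1 and 0.75 for Egln3 in wt and to 0.30 for Egln1 and 0.31 for Egln3 in Treml4-/- cells, and at M1-12 h to -0.30 for Aldoa and 0.43 for Eno2 in wt and to -0.42 for Aldoa, -0.0581 for Gapdh, 0.55 for Eno2 and -0.24 for Pkm in Treml4-/- cells. Both methods are built to take out the fall of the median gene. Leaving out 1 library moved the wt M1-8 h values of Egln1 from -0.32 to 0.0387 and of Egln3 from -0.52 to 0.0700 (without replicate 2 and 1 of that group, in this order; Egln3 at -0.52 was called lower), and those of Pkm from -0.20 (without replicate 1 of that group) to 0.0335, the upper end without wt M1-8 h replicate 2, and the cause was not tested. With the deposited log2 CPM the rises of Adm from M1-8 h to M1-12 h (0.94 in wt, 0.95 in Treml4-/- cells) were not called.

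Leaving out 1 library gave 26 to 27 called genes at M1-8 h in wt, 27 to 30 in Treml4-/- cells, 30 to 33 and 28 to 30 at M1-12 h, and 25 to 27 and 27 to 29 from M1-8 h to M1-12 h. Between genotypes it gave 0 at M0, 0 to 1 at M1-8 h and at M1-12 h, and 0 for both differences in response. Over all genes tested the genotype calls depended on single libraries: 12 at M0 became 219 without wt M0 replicate 1 and 7 without Treml4-/- M0 replicate 1, 11 at M1-8 h became 598 without Treml4-/- M1-8 h replicate 1 and 19 without wt M1-8 h replicate 1, and 16 at M1-12 h became 79 without wt M1-12 h replicate 1 and 6 to 7 without any 1 other library of that comparison. With the libraries of the comparison alone these counts were 7, 5 and 8, with no filter on low values 7 at M1-8 h and at M1-12 h, and with voom 10 at M1-12 h. The 1 gene with a called difference in response became 33 at M1-12 h without wt M0 replicate 1, 3 at either time without wt M0 replicate 2, 2 at M1-8 h with no filter and at M1-12 h with quantile normalization, and 0 at both times with voom or the deposited log2 CPM. No isoform share changed its call or direction without exon lengths or with the longest transcript as length. None changed direction without any 1 library, and no call is read from 3 against 4 libraries. Same-numbered libraries within a genotype had deviations correlated at -0.27 to 0.46, so the numbers were not taken as pairs. With a replicate block 26, 29, 31, 29, 27 and 28 of the 34 genes were called in the comparisons within a genotype, in the order above, and 0 in the others, the same counts as without it. The calls of the other pathway lists under other scalings were added after the data were seen. Depth limits only Adm before LPS, where at most 1 read was seen.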
